A study of Homo sapiens with 8 samples.

Results

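The mitochondrial ribosomal protein genes were followed here in RNA-Seq libraries of cells labelled A549 that carried an empty lentiviral vector or a KRT19 vector. The members were all rows of the count table annotated as protein_coding with a gene symbol made of MRPS or MRPL, a number and at most 1 further letter. This rule used names only, no measured value, and found 78 genes among the 58735 in the table, 29 of them named MRPS for the small subunit and 49 named MRPL for the large subunit. The EV group (n = 4 libraries) held cells transduced with the lentiviral control vector, and the KRT19 group (n = 4 libraries, labelled KRT19-OVE) held cells transduced with lentivirus encoding Flag-tagged KRT19, a keratin of simple epithelia. Per the study's methods both were selected with puromycin as stable populations, so each group stands for 1 transduced population of 1 line, and nothing says that the 4 libraries of a group came from separate transductions or cultures. The p-values below therefore measure the spread between libraries, which may be technical.

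Mitochondria keep their own ribosome, which translates the few messenger RNAs of mitochondrial DNA into membrane subunits of the respiratory chain and ATP synthase. Its ribosomal RNAs are transcribed from mitochondrial DNA, whereas its proteins are encoded in the nucleus, made on cytosolic ribosomes and imported. Some of these proteins have a counterpart in the bacterial ribosome and others were added in the mitochondrial lineage, and most nuclear genes of the family are active in nearly every cell type.

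Total counts ran from 14073065 to 17054364 per library. KRT19 was at 0.166 ± 0.0975 CPM (counts scaled to a library total of 1000000, mean ± SD, n = 4) in EV and at 305 ± 11.0 CPM in KRT19, a log2 fold change of 10.75 ± 0.12 (SE) with an edgeR adjusted p of 5.19e-20, so the labels and the overexpressed gene matched in all 8 libraries. Of the markers looked up for A549 and epithelial cells and reported here, KRT8, KRT18 and NQO1 lay between 189 and 453 CPM in each library, while EPCAM, CDH1, AKR1B10 and ALDH1A1 were at 0.852 CPM or lower and AKR1C1 at 1.29 CPM or lower. CDKN2A, a locus that A549 is known to have lost, had 104 ± 6.42 CPM in EV and 102 ± 5.34 CPM in KRT19, a check chosen with its values known. The cells are therefore called by their label only. The extraction text in the labels speaks of retinas, and of the retina markers looked up and reported here SAG and RCVRN had 0 counts in all 8 libraries, where 3 counts correspond to 0.176 to 0.213 CPM. CRX, RLBP1 and PDE6B had 0 to 6 counts per library, NRL lay at 0.640 to 1.45 CPM and OPN1SW at 1.29 to 2.13 CPM. Replicate 3 of KRT19 stood apart over all genes: its counts differed from those of the other KRT19 libraries by a chi-square of 7.86 to 13.8 per degree of freedom, against 2.83 to 6.60 for every pair without it.

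The members were scattered over 21 chromosomes of the hg38 assembly, with at most 8 on 1 chromosome and none on X. Per the coordinates in the file, 17 of 78 (21.8%) had their start within 1000 bases of the start of a coding gene on the opposite strand, pointing away from it, against 7.38% of all coding genes. MRPL46 (chromosome 15, 88459476 to 88467419, minus strand) and MRPS11 (88467453 to 88480773, plus strand) formed such a head-to-head pair of 2 members, 34 bases apart. MRPL36 stood beside NDUFS6 and MRPL47 beside NDUFB5, both encoding complex I subunits. Outside the family, 14 of the 15 partners were measured well enough for the test described below. In the edgeR fit 0 of them passed an unadjusted p of 0.05, where 5.41% of all genes tested did (smallest unadjusted p = 0.0698, adjusted p = 0.906).

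Promoter sequences of RefSeq (GRCh38.p14, 250 bases before to 50 after the transcript start) were matched by symbol for 69 of the 78 members. Letters bound by 3 activators of nuclear genes for mitochondrial proteins were searched on both strands: GCGCANGCG for NRF1, CCGGAAGT for GABP and other ETS factors, and AAGATGGCG for YY1. The YY1 letters were in 13 of 69 member promoters (18.8%), against 2.83% of 14896 coding promoters and 1.85% of all 27305 promoters of this length. In 10 of these 13 they began within the 40 bases after the start, on the sense strand. The NRF1 letters were also in 13 (18.8%, against 11.2% of coding and 8.05% of all promoters), and the GABP letters in 11 (15.9%, against 6.36% and 4.44%). At least 1 of the 3 was in 32 promoters, 5 promoters held 2 of them and 0 held all 3, and a match of letters is a description of the sequence only. The promoters below are those of the 4 members with the smallest unadjusted p between KRT19 and EV that had an entry, namely MRPL41 at chr9:137551629-137551928 (plus strand), MRPL1 at chr4:77862580-77862879 (plus strand), MRPL43 at chr10:100987448-100987747 (minus strand) and MRPL50 at chr9:101398569-101398868 (minus strand), followed by MRPL22 at chr5:154940823-154941122 (plus strand) and MRPL36 at chr5:1799788-1800087 (minus strand), which were chosen for holding 2 of the motifs. Capitals mark motif letters, and the smallest-p member MRPS36 had no entry. RefSeq starts were not always those of the file. The windows of MRPL36, MRPL41 and MRPL1 leave out their gene starts in the file (1801366, 137551199 and 77862520). The windows of MRPL36 and MRPL41 are therefore not the stretch beside their head-to-head partners NDUFS6 and PNPLA7.
MRPL41: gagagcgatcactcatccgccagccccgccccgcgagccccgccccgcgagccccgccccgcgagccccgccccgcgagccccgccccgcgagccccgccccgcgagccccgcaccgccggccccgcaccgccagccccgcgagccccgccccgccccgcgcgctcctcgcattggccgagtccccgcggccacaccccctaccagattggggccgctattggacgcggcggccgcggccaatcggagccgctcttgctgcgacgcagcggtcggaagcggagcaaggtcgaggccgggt
MRPL1: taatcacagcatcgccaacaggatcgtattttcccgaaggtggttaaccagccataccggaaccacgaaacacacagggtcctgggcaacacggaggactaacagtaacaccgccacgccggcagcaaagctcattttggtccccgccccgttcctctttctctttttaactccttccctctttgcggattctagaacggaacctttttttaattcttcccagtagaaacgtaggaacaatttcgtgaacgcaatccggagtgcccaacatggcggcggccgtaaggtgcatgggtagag
MRPL43: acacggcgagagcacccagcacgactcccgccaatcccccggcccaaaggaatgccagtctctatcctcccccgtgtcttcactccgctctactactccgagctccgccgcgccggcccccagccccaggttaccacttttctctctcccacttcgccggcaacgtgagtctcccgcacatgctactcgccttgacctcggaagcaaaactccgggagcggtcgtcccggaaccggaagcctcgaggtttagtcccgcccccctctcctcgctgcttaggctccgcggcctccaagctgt
MRPL50: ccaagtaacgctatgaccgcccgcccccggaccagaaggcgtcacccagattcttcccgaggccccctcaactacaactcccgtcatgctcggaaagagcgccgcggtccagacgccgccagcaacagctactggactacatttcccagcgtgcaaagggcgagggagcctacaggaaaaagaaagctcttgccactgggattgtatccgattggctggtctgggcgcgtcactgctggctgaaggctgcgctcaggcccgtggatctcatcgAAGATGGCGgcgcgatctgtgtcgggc
MRPL22: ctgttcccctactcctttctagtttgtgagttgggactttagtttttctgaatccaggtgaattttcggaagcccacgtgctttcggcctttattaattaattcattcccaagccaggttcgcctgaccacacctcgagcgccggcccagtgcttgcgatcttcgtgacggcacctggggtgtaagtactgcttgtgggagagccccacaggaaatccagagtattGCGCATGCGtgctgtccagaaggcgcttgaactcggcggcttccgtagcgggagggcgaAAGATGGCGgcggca
MRPL36: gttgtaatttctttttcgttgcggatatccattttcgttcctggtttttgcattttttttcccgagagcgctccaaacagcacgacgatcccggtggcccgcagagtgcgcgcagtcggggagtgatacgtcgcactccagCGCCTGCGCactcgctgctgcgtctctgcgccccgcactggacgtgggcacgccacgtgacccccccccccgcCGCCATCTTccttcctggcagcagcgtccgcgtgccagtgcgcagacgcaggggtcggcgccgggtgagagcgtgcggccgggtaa

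Of these 4 members with small p, only MRPL50 held any of the 3 motifs, the YY1 letters at bases 23 to 31 after the start. MRPL22 carried the NRF1 letters from base -24 to -16 and the YY1 letters from base 35 to 43. MRPL36 carried both on the opposite strand, NRF1 from -109 to -101 and YY1 from -36 to -28. The factors themselves were present at levels that differed little between groups: NRF1 had 22.9 ± 0.494 CPM in EV and 23.2 ± 1.12 in KRT19, YY1 213 ± 9.30 and 214 ± 8.32, and GABPA 43.2 ± 4.34 and 46.8 ± 8.72, with edgeR adjusted p of 0.978, 0.996 and 0.923.

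Levels of different members were compared per length, as counts per kilobase of the exonic length in the file scaled to a sum of 1000000 per library (TPM scale). The median member was at 79.4 TPM, against 16.1 TPM for all 14621 genes tested, 857 TPM for the 79 cytosolic ribosomal protein genes and 127 TPM for the 75 nuclear subunits of the respiratory chain and ATP synthase (OXPHOS). Levels were above 100 TPM for 29 members, between 10 and 100 TPM for 44 and under 10 TPM for 5. The MRPS members had a median of 63.3 TPM and the MRPL members of 89.1 TPM. Quartiles were 31.2 and 149 TPM for MRPS and 46.0 and 119 TPM for MRPL, so these name groups overlapped over most of their range. Members with a bacterial counterpart (n = 45) had a median of 89.1 TPM and those added in mitochondria (n = 31) of 72.6 TPM.

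The highest level was that of MRPL51, a large-subunit protein without a bacterial counterpart, at 474 ± 17.4 TPM (mean ± SD over 8 libraries) with a range of 437 to 490. MRPS34, a small-subunit protein of the same kind, followed at 341 ± 16.7 TPM and MRPL15, which has a bacterial counterpart, at 326 ± 13.5 TPM. MRPL51 was above MRPS34 in all libraries, whereas MRPS34, MRPL15 and MRPL41 (323 ± 18.3 TPM) overlapped in range and could not be ordered. Of 77 neighbouring pairs in the order of levels, 71 overlapped in range over the 8 libraries and 6 did not. MRPL51 (chromosome 12, 6491886 to 6493841, minus strand) shares 31.3% of its exonic bases with NCAPD2 on the opposite strand. The sources used here do not say whether counting used strand.

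**Figure D1:**
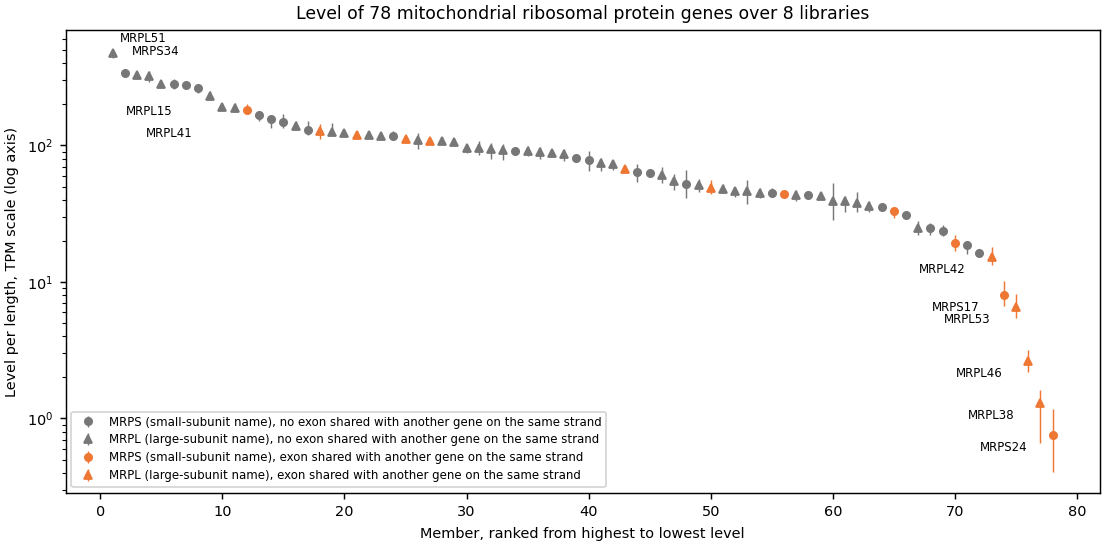
Mean level of each of the 78 members over 8 libraries on the TPM scale (log axis), ranked from highest to lowest, with bars from the lowest to the highest library. Circles are MRPS and triangles MRPL members, and orange marks exons shared with another gene on the same strand. The 5 members under 10 TPM are all orange, and MRPL51 at 474 TPM stands above the rest.

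The low end of the order fell together with gene models that overlap. All 5 members under 10 TPM share exons with another gene on the same strand, which 16 of the 78 members do. They were MRPS17 (8.02 ± 1.13 TPM), MRPL53 (6.54 ± 0.833), MRPL46 (2.64 ± 0.407), MRPL38 (1.31 ± 0.293) and MRPS24 (0.761 ± 0.264). In this order they share 27.0%, 45.2%, 11.3%, 41.1% and 23.2% of their exonic bases with other genes on either strand. MRPL9 shares 38.5%, also in part on the same strand, and stood at 108 TPM. The 16 overlapping members had a median of 38.5 TPM and the other 62 a median of 88.3 TPM with a lowest value of 16.3 TPM. MRPS24 (chromosome 7, 43866558 to 43869893, minus strand), the mitochondrial counterpart of a core protein of the small subunit, had 5, 8, 10 and 10 counts in EV and 13, 7, 5 and 13 counts in KRT19. These counts were too low for the test, which leaves 77 tested members, and the groups overlapped.

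The gene models that overlap these low members differed in reads. URGCP-MRPS24, a read-through model over MRPS24, and AC013489.1 over MRPL46 had 0 counts in all 8 libraries, and AC087289.3 over MRPL38 had 0 or 1 count per library. CCDC142 beside MRPL53 and NIPSNAP2 beside MRPS17 were expressed, at 9.82 ± 0.713 and 35.6 ± 2.81 CPM in EV, and both had more counts in each library than the member. CCDC142 had 133 to 180 counts per library against 34 to 44 in MRPL53, and NIPSNAP2 had 503 to 608 against 67 to 103 in MRPS17. Overlap did not always go with a low level, since MRPL12 shares 68.2% of its exonic bases with AC139530.2, itself at 0 counts, and stood at 119 ± 5.42 TPM. How reads falling in 2 gene models were counted is not given in the sources used here, and its part in these levels was not tested. MRPL42, next above these at 15.4 TPM, shares 1.72% of its exonic bases and has a listed length of 16393 bases against a median of 2539 bases for the members. Pseudogene copies took few counts in all: 75 pseudogenes named after members had 83.9 counts per library together, against 79183 in the members.

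Between KRT19 and EV no member passed the test. Among 77 tested members 0 passed an adjusted p of 0.05 in the edgeR quasi-likelihood fit (smallest adjusted p = 0.906), where 0.00684% of the 14621 genes did, KRT19 alone. At an unadjusted p of 0.05, as used in the study's methods, 0 members were higher, where 2.85% of all genes were, and 0 were lower, where 2.56% were. In 0 members did all 4 KRT19 libraries lie above all 4 EV libraries (1.63% of all genes) or below them (1.81%). The DESeq2 Wald test also gave 0 members at an adjusted and 0 at an unadjusted p of 0.05, where 3.97% of all genes passed the unadjusted threshold. With limma-voom and library quality weights 0 passed the adjusted and 4 (5.19%) the unadjusted threshold, where 9.14% of all genes did: MRPS34 was higher, and MRPL41, MRPS6 and MRPS36 were lower.

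Differences within the family were small in both directions. The median log2 fold change was 0.017, with quartiles of -0.015 and 0.051, beside 0.0051 for all genes tested. It was above 0 for 49 of 77 members (63.6%), against 52.2% of all genes. Without EV replicate 1 the median was 0.0029 and 40 of 77 members were above 0, beside 7564 of 14621 genes, and 43 members were above 0 with upper-quartile scaling and with GC and length trends removed. The median size of the log2 fold change, sign left out, was 0.034 in members and 0.068 in all genes, and the members were also the more highly expressed, with a median of 5.78 against 4.50 log2 CPM, and their median SE was 0.065 against 0.084. Of the members, 69 (89.6%) differed by less than 0.1 on the log2 scale, against 64.95% of all genes. For 65 members (84.4%) the 95% interval of the log2 fold change lay wholly between -0.25 and 0.25, which corresponds to a change between -15.9% and 18.9%, and 48.6% of all genes had so narrow an interval. All but MRPL38 and MRPL23 had an interval within 0.5 of 0. RNA-Seq of bulk cells gives shares of a library, so fewer cells of a kind and less RNA per cell cannot be told apart.

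**Figure D2:**
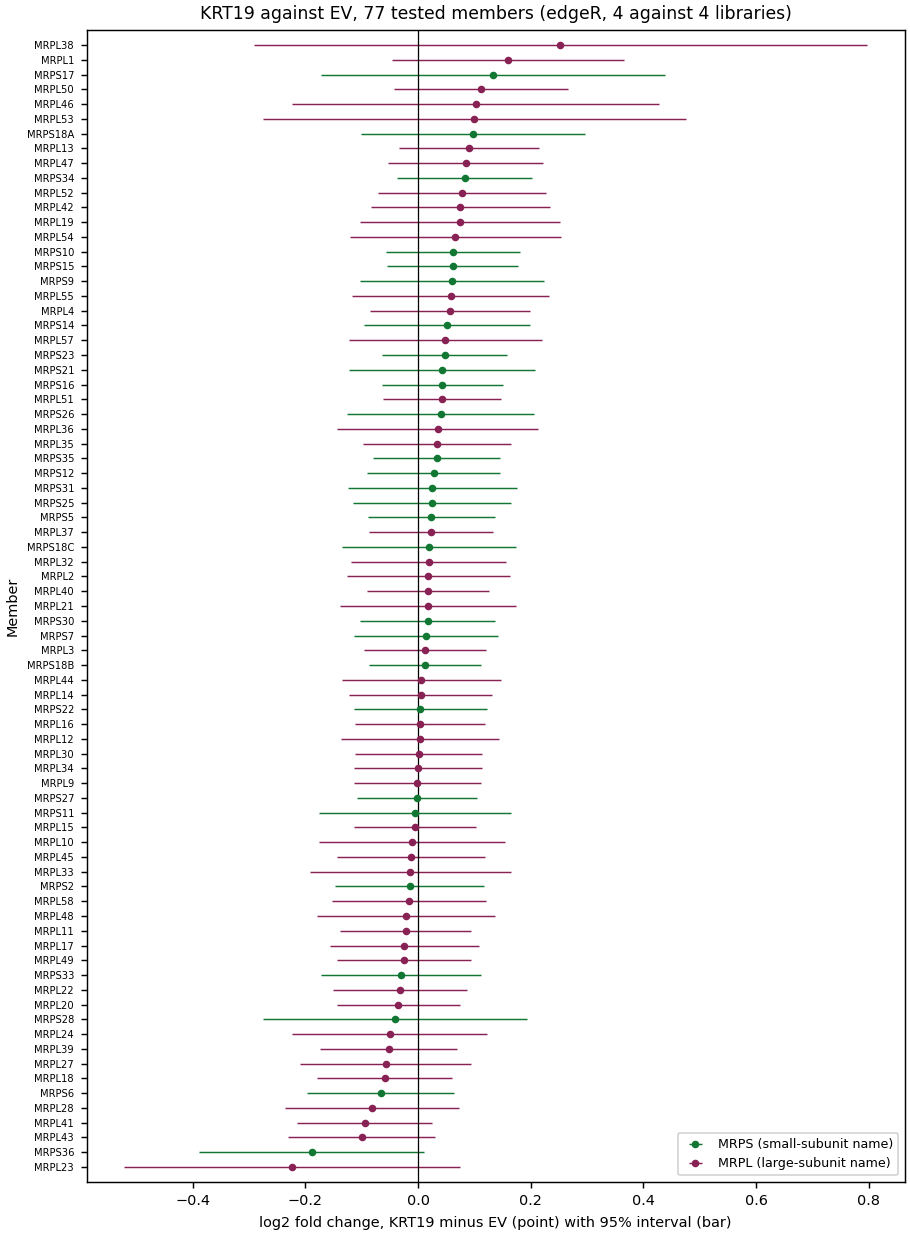
Log2 fold change of KRT19 against EV for the 77 tested members (points) with the 95% interval of the edgeR fit (bars), sorted, with MRPS in green and MRPL in purple. Every bar crosses 0, the widest bar belongs to MRPL38, and only the bars of MRPL38 and MRPL23 reach further than 0.5 from 0.

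Summed over the family, the members took 0.493% ± 0.00761 of all counts in EV (n = 4) and 0.496% ± 0.00346 in KRT19 (exact permutation test over libraries, two-sided, p = 0.657). The mean log2 CPM of the tested members was 5.52, 5.60, 5.61 and 5.58 in EV replicates 1 to 4 and 5.60, 5.58, 5.60 and 5.60 in the KRT19 replicates. EV replicate 1 was the lowest library, and the other EV libraries overlapped with those of KRT19. It was the lowest of the 8 libraries for 23 members, and KRT19 replicate 3 was the highest for 18 and the lowest for 13. Without EV replicate 1 the median log2 fold change of the members was 0.0029. The cytosolic ribosomal protein genes were also low in EV replicate 1, with a mean of 9.08 log2 CPM where the remaining 3 EV libraries had 9.17 to 9.25, and KRT19 replicate 3 had 9.10.

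**Figure D3:**
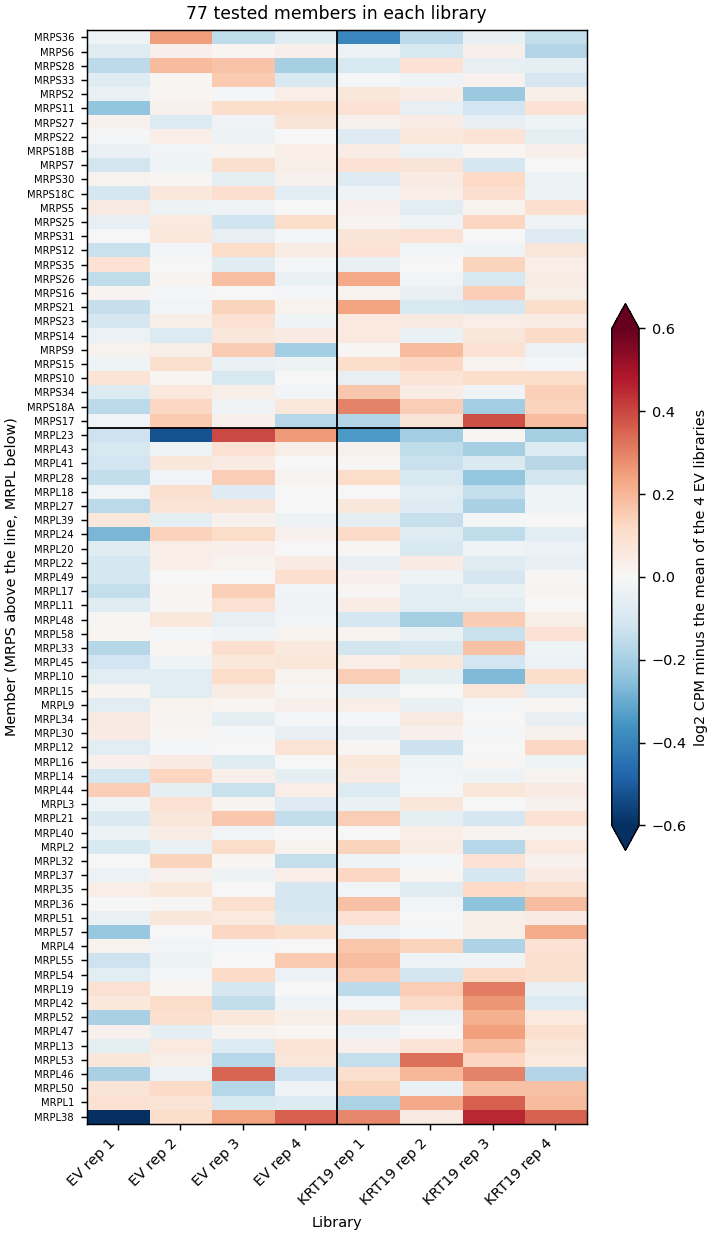
Log2 CPM of each tested member in each library after subtraction of the mean of the 4 EV libraries (blue lower, red higher), with MRPS above and MRPL below the horizontal line and EV left of the vertical line. Each block is sorted by fold change, and the colours do not divide at the vertical line in any row: EV replicate 1 is the lowest library for 23 members and KRT19 replicate 3 the highest for 18.

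Of the 28 tested members named MRPS, 21 had a log2 fold change above 0, with a median of 0.025 and a range of -0.19 to 0.13. Without EV replicate 1 this was 16 of 28 with a median of 0.0070, and with GC and length trends removed it was 17 of 28. MRPS36 had the smallest p of the family. It was named as a ribosomal protein but is now known as a subunit of the 2-oxoglutarate dehydrogenase complex of the citric acid cycle. Its level was 23.03, 27.9, 21.1 and 22.3 CPM in EV and 17.8, 21.0, 22.7 and 21.2 CPM in KRT19. The lowest library was a KRT19 library and the highest an EV library, but the groups overlapped. The log2 fold change was -0.19 ± 0.095 (SE, 95% interval -0.39 to 0.011), with an edgeR adjusted p of 0.906 (unadjusted p = 0.0627, exact permutation p = 0.171). MRPS36 passed the unadjusted threshold in 7 of 17 alternative analyses and the adjusted one in 0, with log2 fold changes from -0.26 to -0.099, the latter without EV replicate 2.

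MRPS34 lay at 95.4, 106, 103 and 99.7 CPM in EV and at 113, 104, 99.3 and 112 CPM in KRT19. The groups overlapped between 99.3 and 106 CPM, and only 2 KRT19 libraries exceeded all EV libraries. Its log2 fold change was 0.083 ± 0.057 (SE, edgeR adjusted p = 0.906), and 4 of 17 alternatives gave an unadjusted p under 0.05. MRPS17, whose bacterial counterpart binds ribosomal RNA, had 4.53, 5.12, 4.68 and 4.06 CPM in EV and 4.04, 4.84, 6.03 and 5.23 CPM in KRT19, a log2 fold change of 0.13 ± 0.14 (edgeR adjusted p = 0.938). It was 0.23 without KRT19 replicate 1 and 0.028 without KRT19 replicate 3.

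The 3 MRPS18 genes encode paralogous proteins, all related to 1 bacterial protein, that occupy different sites of the ribosome. They differed widely in level: MRPS18B (chromosome 6, 30617709 to 30626395) was at 277 ± 3.82 TPM, MRPS18A (chromosome 6, 43671303 to 43687791) at 77.8 ± 8.60 TPM and MRPS18C (chromosome 4, 83455932 to 83469735) at 16.3 ± 0.871 TPM, with no overlap in range over the 8 libraries. MRPS18A shares 47.0% of its exonic bases with RSPH9, and MRPS18C shares 40.2% with ABRAXAS1, on the opposite strand in both cases. The paralogues did not differ between groups beyond their spread. Their log2 fold changes were 0.098 ± 0.094 for MRPS18A, 0.012 ± 0.047 for MRPS18B and 0.019 ± 0.073 for MRPS18C (edgeR adjusted p = 0.927, 0.978 and 0.978). MRPS18A was 23.1 CPM in KRT19 replicate 3 and 29.4 to 33.0 CPM in the other KRT19 libraries, against 23.9 to 29.2 CPM in EV. Without KRT19 replicate 3 its log2 fold change was 0.19 (unadjusted p = 0.0171, edgeR adjusted p = 0.903), and without KRT19 replicate 1 it was 0.024 (unadjusted p = 0.801, edgeR adjusted p = 0.957).

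Of the 49 members named MRPL, 28 had a log2 fold change above 0, with a median of 0.0043. The median was -0.0076 with upper-quartile scaling, which moved the median of all genes to -0.0068, and it was -0.0011 without EV replicate 1 and -0.0040 without KRT19 replicate 4. MRPL38 had the highest value, from 0.666, 1.27, 1.40 and 1.53 CPM in EV to 1.45, 1.21, 1.64 and 1.52 CPM in KRT19. These were 10 to 28 counts per library, EV replicate 1 alone lay below the other group, and the log2 fold change of 0.25 ± 0.26 had a 95% interval of -0.29 to 0.80. It was 0.063 without EV replicate 1 (edgeR adjusted p = 0.976) and 0.38 without EV replicate 4. MRPL1, whose bacterial counterpart sits on the mobile stalk near the exit site for transfer RNA, had 24.96, 24.83, 22.03 and 22.18 CPM in EV and 20.5, 27.5, 30.1 and 26.8 CPM in KRT19. Here 3 KRT19 libraries were above all EV libraries and replicate 1 below them. Its log2 fold change was 0.16 ± 0.097 (edgeR adjusted p = 0.906), and 0.26 without KRT19 replicate 1 (unadjusted p = 0.00369, edgeR adjusted p = 0.435). Without KRT19 replicate 3 it was 0.082 (unadjusted p = 0.37, edgeR adjusted p = 0.956).

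MRPL23, whose bacterial counterpart lines the end of the exit tunnel, had the lowest value of the family. Its EV libraries spread widely, at 30.9, 23.4, 44.4 and 40.4 CPM, with KRT19 at 26.6, 29.3, 33.9 and 29.4 CPM. All 4 KRT19 values fell inside the EV range, and the log2 fold change was -0.22 ± 0.14 (95% interval -0.52 to 0.074, edgeR adjusted p = 0.906). Without EV replicate 2 it was -0.38 (unadjusted p = 0.00353, edgeR adjusted p = 0.908), and without EV replicate 3 it was -0.085 (unadjusted p = 0.525, edgeR adjusted p = 0.997).

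MRPL41 and MRPL43, both without a bacterial counterpart, had log2 fold changes below 0 that did not pass the test. MRPL41 had 108, 123, 121 and 117 CPM in EV and 118, 107, 110 and 104 CPM in KRT19. Its groups overlapped through EV replicate 1 and KRT19 replicate 1, and the log2 fold change was -0.095 ± 0.057 (edgeR adjusted p = 0.906, exact permutation p = 0.143). Over the alternatives MRPL41 ran from -0.13 to -0.045, the latter with the replicate block and GC and length trends removed, and 3 of 17 passed the unadjusted threshold. MRPL43 had 69.7, 73.3, 79.4 and 76.4 CPM in EV and 76.1, 67.2, 64.997 and 70.5 CPM in KRT19, a log2 fold change of -0.10 ± 0.062 (edgeR adjusted p = 0.906). MRPL43 shares 36.9% of its exonic bases with SEMA4G and TWNK on the opposite strand. The abundant MRPL51 (0.042 ± 0.050) and MRPL15 (-0.0059 ± 0.052) and the low MRPL46 (0.10 ± 0.15) had log2 fold changes no larger than about their SE. When a library was left out, that of MRPL46 ran from 0.030 (without KRT19 replicate 3) to 0.24 (without EV replicate 3), and that of MRPL51 was 0.013 without EV replicate 4. Members with a bacterial counterpart had a median log2 fold change of 0.0083 (26 of 44 above 0) and those added in mitochondria of 0.025 (22 of 31 above 0). Without EV replicate 1 these were -0.012 (19 of 44) and 0.011 (20 of 31), and the first was also below 0 without EV replicate 4, without KRT19 replicate 1 (-0.0041, 22 of 44) and with upper-quartile scaling (-0.0036).

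**Figure D4:**
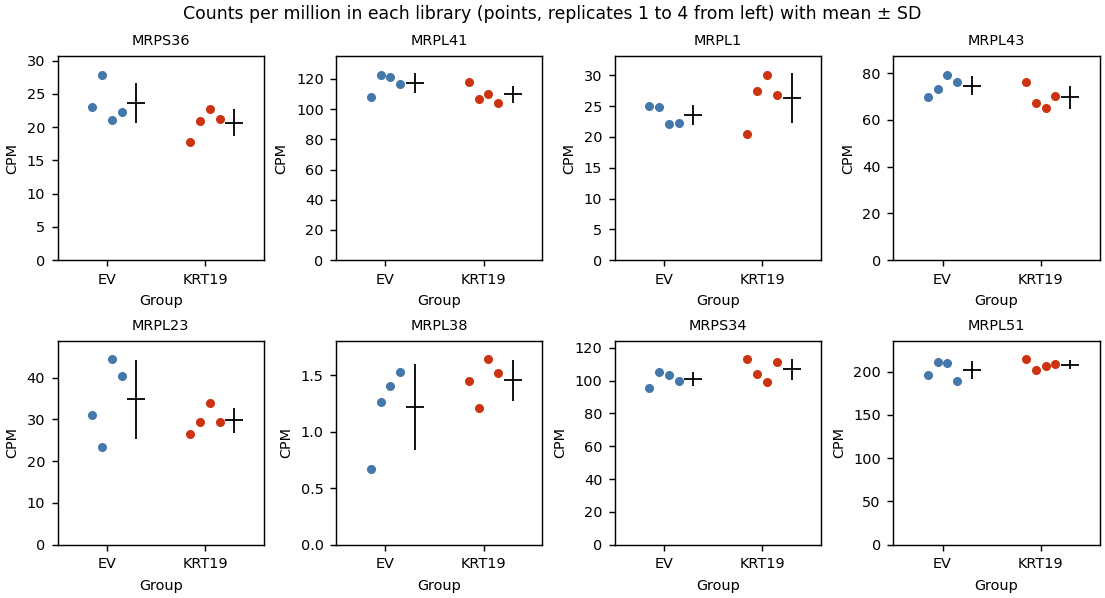
CPM in each of the 4 EV (blue) and 4 KRT19 (red) libraries for 8 members, replicates 1 to 4 from left to right in each group, with the mean and SD in black; each axis starts at 0. The groups overlap in every panel, and the EV libraries of MRPL23 span 23.4 to 44.4 CPM.

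The other genes of mitochondrial translation were described by list. The list for ribosomal proteins of the organelle with other names (n = 5) had a median log2 fold change of -0.030, ribosome assembly factors (n = 26) 0.030 with 20 above 0, translation factors (n = 11) 0.025 and mitochondrial tRNA synthetases (n = 20) 0.026. When a library was left out, the median of the translation factors turned to -0.032 without KRT19 replicate 3, that of the synthetases ran from 0.0035 (without KRT19 replicate 1) to 0.049 (without KRT19 replicate 3), and that of the assembly factors fell to 0.0088 without KRT19 replicate 1. The median of the ribosomal proteins with other names ran from -0.048 to -0.012. None of their genes passed the adjusted threshold in the edgeR fit, and at an unadjusted p of 0.05 the only 1 was the initiation factor MTIF2, where 2.85% of all genes were higher. It had 57.2 ± 3.33 CPM in EV and 64.99 ± 5.48 CPM in KRT19, a log2 fold change of 0.18 ± 0.067, and missed the adjusted threshold (unadjusted p = 0.0136, edgeR adjusted p = 0.906). Without EV replicate 3 its unadjusted p was 0.0527. MTIF2 passed the unadjusted threshold in 16 of 17 alternatives and the adjusted threshold in 0, with log2 fold changes from 0.14 to 0.23. The cytosolic ribosomal protein genes had a median of -0.010 (32 of 79 above 0) and the nuclear OXPHOS subunits of -0.011 (25 of 74 above 0). Both signs turned when 1 library was left out, to 0.019 (56 of 79) and 0.010 (47 of 74) without EV replicate 3 and to 0.020 (56 of 79) and 0.016 (46 of 74) without KRT19 replicate 3, and with limma-voom they were 0.013 and 0.0091. Without EV replicate 1 they were -0.046 (13 of 79) and -0.041 (15 of 74), and without KRT19 replicate 2 the cytosolic genes had 0.0026. The difference of these lists from the members was not tested.

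In the list for transcription, RNA processing and upkeep of mitochondrial DNA (n = 18) the median was 0.056 with 14 above 0, and 2 genes, both higher, passed the unadjusted threshold, where 2.85% of all genes were higher. Without KRT19 replicate 1 the median was 0.029. TRMT10C, a subunit of mitochondrial RNase P, had 25.2, 27.9, 21.9 and 30.3 CPM in EV and 29.2, 30.4, 36.9 and 28.98 CPM in KRT19 (log2 fold change 0.25 ± 0.097, edgeR adjusted p = 0.906). LRPPRC, which stabilises mitochondrial messenger RNAs, had 255 ± 17.7 and 280 ± 23.7 CPM (0.13 ± 0.063, edgeR adjusted p = 0.906). Both were highest in KRT19 replicate 3, and without it their log2 fold changes were 0.16 and 0.074, with an unadjusted p of 0.0669 and 0.157. Over all alternatives TRMT10C ran from 0.13 to 0.33 and LRPPRC from 0.074 to 0.17. The unadjusted threshold was also missed by TRMT10C without EV replicate 3 and with limma-voom, and LRPPRC passed it in 7 of 17 alternatives. The 8 regulators of mitochondrial biogenesis had a median of 0.0098 (-0.0021 with upper-quartile scaling, 0.0044 to 0.022 when a library was left out). In the edgeR fit 0 of these regulators passed either threshold, where 5.41% of all genes passed the unadjusted threshold.

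The 2 mitochondrial ribosomal RNAs, the RNA partners of the members, both had lower values in KRT19. MT-RNR2, the large-subunit RNA, had 3578, 3362, 3592 and 3746 CPM in EV and 3169, 3096, 3177 and 3494 CPM in KRT19. The groups overlapped through EV replicate 2 and KRT19 replicate 4, with a log2 fold change of -0.14 ± 0.049 (unadjusted p = 0.0103, edgeR adjusted p = 0.900). MT-RNR1, the small-subunit RNA, had 455, 461, 575 and 586 CPM in EV and 527, 437, 391 and 467 CPM in KRT19 (-0.19 ± 0.089, unadjusted p = 0.0488, edgeR adjusted p = 0.906), and without KRT19 replicate 3 its log2 fold change was -0.12 (unadjusted p = 0.114), while without KRT19 replicate 1 it was -0.27. MT-RNR1 passed the unadjusted threshold in 10 of 17 alternatives and MT-RNR2 in 17. How ribosomal RNA was removed from the libraries is not given in the sources used here, so these 2 values need not follow the RNA in the cells.

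The 13 messenger RNAs that this ribosome translates had a median log2 fold change of 0.079, with 11 above 0. In the edgeR fit 0 of them passed the unadjusted threshold, where 5.41% of all genes did. Without KRT19 replicate 3 the median was 0.0096, and without KRT19 replicate 2 it was 0.14, with 5 higher at the unadjusted threshold, where 2.88% of all genes were. With the looser filter on low counts 5 were higher and 1 lower at an unadjusted p of 0.05, where 2.94% and 2.21% of all genes were, and MT-ND6, named after its values were seen, also passed the adjusted threshold (edgeR adjusted p = 1.28e-08), which it did in no other alternative. Its log2 fold change was 0.36 with all libraries, and without KRT19 replicate 3 it was 0.013. Counts on the mitochondrial chromosome were 3.14% ± 0.139 of the library in EV and 3.17% ± 0.240 in KRT19. Among the nuclear subunits of the complexes built from their products, ATP5PD, a stalk subunit of ATP synthase, was the most different and the only named gene besides KRT19 whose groups were fully apart: 112, 119, 105 and 115 CPM in EV against 94.7, 96.9, 99.8 and 93.8 CPM in KRT19 (-0.23 ± 0.054, unadjusted p = 0.000588, edgeR adjusted p = 0.506). ATP5PD passed the unadjusted threshold in all 17 alternatives and the adjusted one with limma-voom alone (adjusted p = 0.0298). UQCRB of complex III had 133 ± 9.07 and 146 ± 7.93 CPM (0.13 ± 0.058, unadjusted p = 0.0385, edgeR adjusted p = 0.906), and an unadjusted p of 0.0812 without KRT19 replicate 3. UQCRB passed the unadjusted threshold in 8 of 17 alternatives, and over all of them its log2 fold change ran from 0.084 to 0.17.

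**Figure D5:**
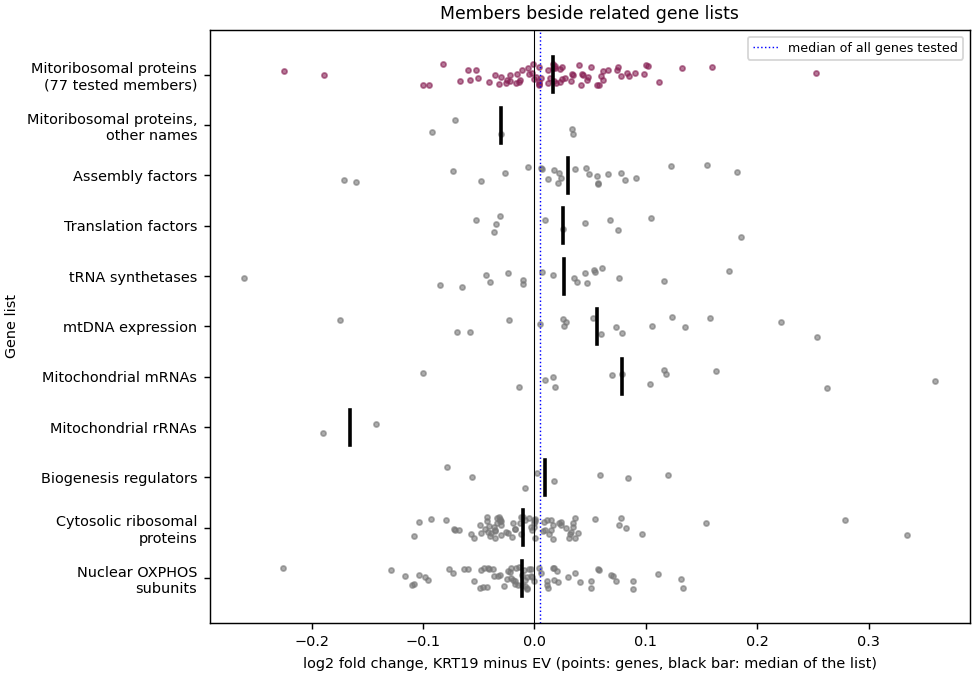
Log2 fold change of KRT19 against EV for the 77 tested members (purple) and the genes of 10 related lists (grey), with the median of each list as a black bar and that of all genes tested as a dotted line. The medians run from -0.17 for the 2 mitochondrial ribosomal RNAs to 0.079 for the 13 mitochondrial messenger RNAs, and the members sit at 0.017.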

How the data were processed

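RNA-Seq covered 8 libraries of A549-labelled cells, 4 per group (NEBNext Ultra kit, total RNA). The authors deposited whole-number read counts per gene, not normalized; the submitters' processing notes name Bowtie 0.12.2, featureCounts 1.5.0-p3, DESeq2 and hg38, while strand and the handling of shared reads are not given in the sources used here. Gene coordinates matched GENCODE release 29 for all 58735 genes. Members and lists were chosen with earlier results of these data known. Counts were tested with edgeR 4.0.16 in R 4.3.3 (filterByExpr, TMM, glmQLFit and glmQLFTest, group only, Benjamini-Hochberg over 14621 genes, two-sided, threshold 0.05). Exact permutation tests covered all 4 against 4 splits (smallest p 0.0286). Alternatives were other scalings, DESeq2 1.42.0, limma 3.58.1 with voom, looser and stricter filters, the replicate number as block, GC and length correction, and omission of each library; the model was tested on simulated data. Named were the 3 highest and 3 lowest members by level, the 3 largest fold changes in each direction, every member with an unadjusted p under 0.05, the MRPS18 paralogues, members whose value rests on an overlap, up to 4 genes per list with an unadjusted p under 0.05, and promoters of up to 4 members of smallest p. MRPS6, MRPL28 and MRPL4 were named for their alternatives, after their values were seen. No sample was left out, and totals limit only counting error. Some marker genes are not reported here.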

Additional observations from a re-analysis of the deposited data

Results flagged for a closer look

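Of 72 groups of 4 libraries examined (named members, family means, named related genes and the mitochondrial messenger RNAs), 1 had a library far from the other 3, where chance alone gives about 3.6. It concerned no member. MT-ATP8, a mitochondrially encoded ATP synthase subunit made on this ribosome, was at 4.48 log2 CPM in KRT19 replicate 3 and between 3.02 and 3.10 in the other KRT19 libraries, and its gap took 94.2% of the group's range. In CPM this was 22.2 against 7.96 to 8.45, with 7.47 to 11.98 in EV. The log2 fold change of MT-ATP8 was 0.26 ± 0.26 (edgeR adjusted p = 0.930) with this library and -0.26 without it. MT-ND6, a complex I subunit of the same genome named after its values were seen, was at 999 CPM in this library and at 438 to 527 CPM in the other KRT19 libraries, and its log2 fold change moved from 0.36 to 0.013 without it.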

How the results depend on the processing

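The count of members past the adjusted threshold was 0 in all 17 alternatives. At an unadjusted p of 0.05, the counts of 0 higher and 0 lower members became 0 and 1 with upper-quartile scaling (2.20% and 3.24% of all genes), 1 and 3 with limma-voom (4.49% and 4.66%), 0 and 2 with the looser filter (2.94% and 2.21% of 30250 genes, 71 of them past the adjusted threshold) and 1 and 1 with GC and length trends removed, without (4.48% and 3.70%) or with the replicate block (3.58% and 3.05%). Leaving out a library gave 0 to 3 higher and 0 to 3 lower members: 3 higher without KRT19 replicate 3 (MRPS34, MRPL4 and MRPS18A, beside 2 lower, with 2.50% and 2.84% of all genes), and 3 lower without KRT19 replicate 1 (MRPL41, MRPL28 and MRPL43, beside MRPL1 higher, with 3.39% and 4.90% of all genes lower and higher). Members with non-overlapping groups became 1 (lower) with GC and length trends removed, with or without the block (2.28% of all genes), and 0 to 2 (higher) when a library was left out (2.57% to 3.93% of all genes). The median log2 fold change of the members ran from 0.0029 without EV replicate 1 to 0.021. Of named genes near 0, MRPS18C reversed to -0.029 (GC and length), -0.027 (the same with the block), and ran from -0.013 to 0.053 when a library was left out. Over the same omissions MRPL15 ran from -0.033 to 0.013, MRPS18B from -0.00071 to 0.028 and MT-ATP8 from -0.26 (without KRT19 replicate 3) to 0.40, and MT-ATP8 was -0.036 with limma-voom. The causes were not tested. Over all genes, the count past the adjusted threshold was 1 with TMM, 5 with DESeq2, 8 with limma-voom, 5 after removal of GC and length trends and 8 when the block was added to that. Residual correlations of same-numbered libraries were -0.11, -0.024, -0.16 and 0.057. Differently numbered libraries were not compared, so pairing by replicate number was not tested. The replicate block gave 0 members past either threshold (3.08% of all genes passed the unadjusted threshold) and a median of 0.017. Depth limited MRPS24 and MRPL38.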

Other observations

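Members were also compared by the letters in their promoters, after the matches were known and with no test. The 12 tested members with the YY1 letters had a median log2 fold change of 0.068 and 11 of them were above 0. The 56 without had a median of 0.0091 with 34 above 0, and 52.2% of all genes tested were above 0. The 13 with the NRF1 letters had a median of 0.0043 with 8 above 0, while the 55 without had 0.023 with 37 above 0. The 11 with the GABP letters had a median of 0.042 with 9 above 0, while the 57 without had 0.017 with 36 above 0. These medians come from the main fit with all libraries only. Over the alternatives, the named YY1 holders ran from 0.063 to 0.38 (MRPL38), 0.024 to 0.19 (MRPS18A), 0.030 to 0.24 (MRPL46), 0.052 to 0.16 (MRPL50) and -0.00071 to 0.028 (MRPS18B). The head-to-head pair MRPL46 and MRPS11 stood at 2.64 and 18.7 TPM, and had log2 fold changes of 0.10 ± 0.15 and -0.0050 ± 0.081.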
